A study of Homo sapiens with 3 samples.

Results

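The YAP-depleted and the TAZ-depleted cells were compared directly, as the array titled A549_siYAP minus the array titled A549_siTAZ, to describe which genes separate the paralogues. These are 2 of the 3 arrays of the series, with 1 array a side. The comparison covers genes that the array's annotation gives as the only symbol of a probe set (the group of probes that reports a transcript). Such genes and probe sets are called named. Of 14884 named genes, 10768 were kept. Their brightest probe set had a mean over the 3 arrays at or above the median of all probe sets, a level of 4.27. The cells of all 3 groups were A549, a line established from a human lung adenocarcinoma, and were transfected by lipofection, and RNA was taken 48 h later: siNC cells received a control siRNA, siTAZ cells an siRNA against TAZ, and siYAP cells an siRNA against YAP. The siNC array takes no part in the difference and is given beside it as the control level. All levels are RMA values read as log2, so a difference of 1 is 2-fold, and a positive difference means a higher level in the siYAP array. With 1 array a side there is no replicate spread, no test and no error on any value, and the folds describe these 2 arrays.

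YAP (gene YAP1) and TAZ (gene WWTR1) are related transcriptional co-activators that have no DNA-binding domain of their own and reach DNA mainly through the TEAD factors. The Hippo kinases LATS1 and LATS2 phosphorylate both proteins and keep them out of the nucleus. In lung epithelium and lung cancer lines the pair is known for driving genes of the matrix, the cytoskeleton, growth factor signalling and proliferation, and the paralogues share most of their known target genes.

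The siRNA targets separated the arrays in the labelled directions, by amounts that depended on the probe set. YAP1 had a level of 8.45 in siNC, 8.24 in siTAZ and 6.87 in siYAP. The siYAP array therefore stood apart, 2.59-fold below siTAZ, and this was the lowest difference of all 10768 kept genes. The dimmer YAP1 probe set had levels of 4.95, 4.75 and 4.38 in the same order, a difference of -0.37 in the same direction. WWTR1 had a level of 6.5 in siNC, 5.81 in siTAZ and 6.5 in siYAP, so that siTAZ was 1.61-fold below siYAP, rank 39 from the top. Against the control, WWTR1 stood at -0.69 in siTAZ and YAP1, on its brightest probe set, at -1.58 in siYAP. The dimmer YAP1 probe set fell less, from 4.95 in siNC to 4.38 in siYAP. Which targeted mRNA was the more depleted is therefore not known. The part of unequal depletion in other differences was not tested. Of 9 epithelial markers looked for, 8 had a named probe set and all 8 were at or above the filter, including EPCAM, KRT8 and KRT18, while the lung markers NKX2-1, SFTPB and SFTPC were dim (4.61 to 5.04 in all 3 arrays). Among these epithelial markers, differences between siYAP and siTAZ ran from -0.071 to 0.42. Of the 12 markers of leukocytes, endothelium and fibroblasts, 8 had a named probe set, and their differences ran from -0.095 to 0.059. CDH1, PTPRC, CD3E, CDH5 and COL1A1 were not measured by a named probe set. The summed log2 level was 53.1 in siTAZ and 53.8 in siYAP over the 8 epithelial markers, 17.2 and 17.3 over 3 leukocyte markers, 8.32 and 8.22 over 2 endothelial markers, and 15.6 and 15.5 over 3 fibroblast markers. LYZ, PECAM1 and DCN were under the filter level. CD14, CD68, VWF, LUM and THY1 were above it, so passing the filter does not separate the cell types. CD68 (9.001 and 9.02) and LUM (8.14 and 8.10) were the brightest of these, at nearly equal levels in the knockdowns.

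The siYAP and siTAZ arrays held equal deposited values for most genes. The values were identical to the last digit for 5800 of the 10768 genes (53.9%), the level was lower in siYAP for 2822 and higher for 2146. Such ties made up 72.8% of the dimmest 2694 genes and 28.8% of the brightest 2692. Their origin was not tested, and they are not read as likeness of the knockdowns. The median difference over all kept genes was 0, and the median size among the 4968 genes that differed was 0.083. At the 2-fold threshold, 7 genes were higher in siYAP (0.065% of those kept) and 3 lower (0.0279%). At 1.5-fold, 61 were higher (0.566%) and 19 lower (0.176%). The balance between directions depended on the size of the difference. At 0.1 or more on the log2 scale, 982 genes were higher and 1154 lower in siYAP, at 0.2 or more 520 and 435, at 0.3 or more 284 and 158, and at 0.4 or more 155 and 67. Small differences thus lay more often on the side of a lower siYAP level, and large ones on the side of a lower siTAZ level. Just past and just short of 2-fold lay RPL23AP87 (1.05) and SQSTM1 (0.997, or 1.996-fold) on the upper side, and ACER2 (-1.15) and TCTN2 (-0.99) on the lower side. At 1.5-fold these were MIR3691 (0.586) and DUSP5 (0.583) above, and PURB (-0.586) and EREG (-0.569) below.

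**Figure D1:**
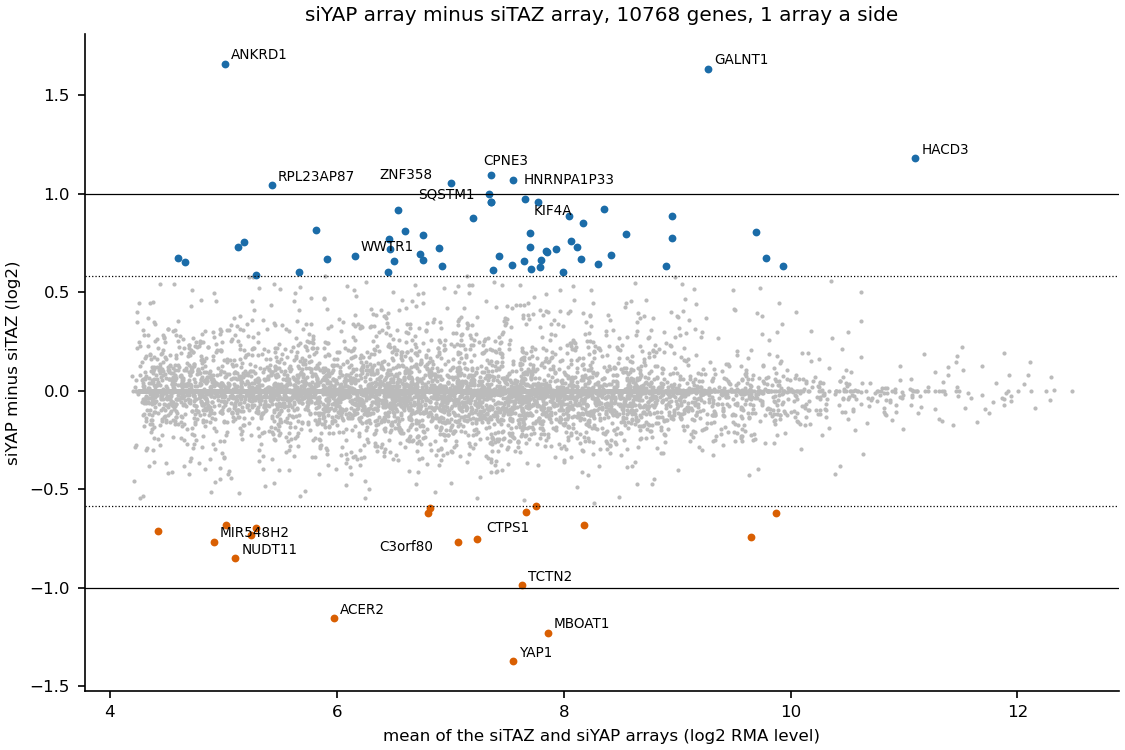
Difference between the siYAP and siTAZ arrays (vertical axis, log2) against the mean of those arrays (horizontal axis, log2 RMA level) for 10768 genes; solid lines mark 2-fold, dotted lines 1.5-fold, blue points the 61 genes at least 1.5-fold higher in siYAP and orange points the 19 at least 1.5-fold lower. ANKRD1 (1.66) and GALNT1 (1.64) lie highest and YAP1 (-1.37) lowest, and the row of points at 0 holds the 5800 genes with identical values.

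The control array places each difference. For 56 of the 61 genes higher in siYAP (91.8%), the siNC level was nearer to siYAP than to siTAZ, and for 37 of them siYAP lay within 0.2 of siNC. In the siTAZ array 47 of the 61 were at least 1.5-fold below the control and 0 at least 1.5-fold above it. The median position of these 61 genes against siNC was -0.77 in siTAZ and 0 in siYAP. For most of these 61 genes, which were picked by the difference itself, the siYAP level was near the control and the siTAZ level low. Among the 2146 genes with any higher siYAP level, siYAP lay within 0.2 of siNC for 1687. For 98 of the 2146, siTAZ was at least 1.5-fold below siNC. A siYAP level near the control was thus not particular to the 61. Over all 10768 kept genes, 110 were at least 1.5-fold below the control in siTAZ and 41 in siYAP. The 19 genes lower in siYAP were mixed: siNC was nearer to siYAP for 12 and nearer to siTAZ for 7, and it lay between the knockdowns for 14. Their median position against siNC was 0.41 in siTAZ and -0.29 in siYAP. Among all genes with any difference, siNC was nearer to siYAP for 57.9% of the 2146 higher and 65.7% of the 2822 lower in siYAP. These shares describe single arrays, and the arrays themselves were not repeated.

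**Figure D2:**
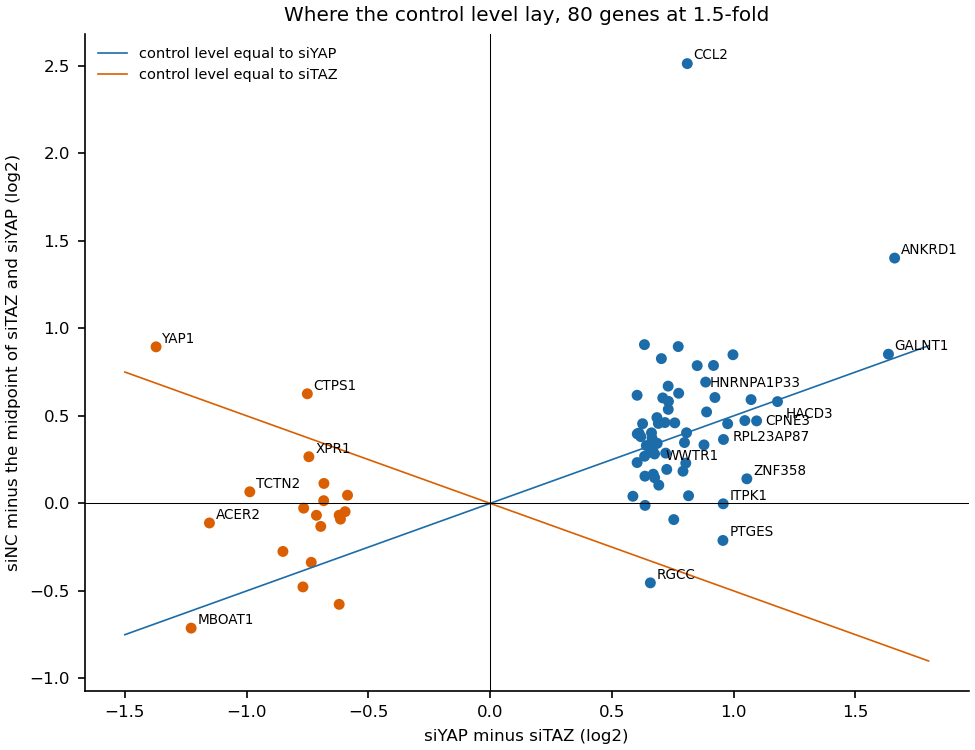
For the 80 genes at 1.5-fold or more, the siNC level minus the midpoint of the siTAZ and siYAP levels (vertical axis, log2) against siYAP minus siTAZ (horizontal axis, log2); on the blue line the control equals siYAP, on the orange line it equals siTAZ. Most points on the right lie along or above the blue line, with the control nearer to siYAP than to siTAZ for 56 of 61. Of the 19 points on the left, 14 lie between the lines, 2 above both lines and 3 below both. On the right, CCL2 lies far above because both knockdowns were below the control.

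ANKRD1, a nuclear ankyrin repeat protein and a standard reporter of YAP/TAZ activity, had the highest difference. Its level was 6.41 in siNC, 4.18 in siTAZ and 5.84 in siYAP. Both knockdowns lay below the control (-2.23 in siTAZ and -0.57 in siYAP), and siYAP was 3.16-fold above siTAZ. The siTAZ level was under the filter level of 4.27. The 250 bases before its start are shown because TEAD factors are the main route of YAP and TAZ to DNA, and because, of the 48 higher and 10 lower genes past 1.5-fold with a promoter in the RefSeq table, only ANKRD1 and YAP1 held the TEAD motif there. The motif searched was GGAATG on either strand (CATTCC on the other). Capitals mark it. In ANKRD1 (GRCh38.p14, chr10:90921088-90921337, minus strand) it begins at positions -220 and -128 from the start, and in YAP1 (GRCh38.p14, chr11:102110197-102110446, plus strand) at position -162.
ANKRD1: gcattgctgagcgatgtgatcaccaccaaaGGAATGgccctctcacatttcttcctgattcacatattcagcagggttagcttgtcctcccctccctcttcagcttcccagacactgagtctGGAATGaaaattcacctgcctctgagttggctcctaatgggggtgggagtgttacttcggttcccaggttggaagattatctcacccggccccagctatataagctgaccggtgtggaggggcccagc
YAP1: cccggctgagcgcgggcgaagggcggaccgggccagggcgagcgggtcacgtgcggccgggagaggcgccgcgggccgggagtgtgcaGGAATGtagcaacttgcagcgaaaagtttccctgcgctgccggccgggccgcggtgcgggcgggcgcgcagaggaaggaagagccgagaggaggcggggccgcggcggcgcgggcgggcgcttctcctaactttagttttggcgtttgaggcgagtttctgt
A match gives only the presence of these letters and is no evidence of binding. The motif was present in 1 of the 48 genes higher in siYAP with a promoter in the table (2.08%) and in 1 of the 10 lower (10%), against 9.67% of the 8315 kept genes with a promoter and 11.9% of all 27305 promoters. The AP-1 motif TGANTCA, searched on both strands, was present in 4 of the 48 (TFPI2, ZNF460, GBP3 and ANKRD1) and in 1 of the 10 (PURB), against 4.45% of the kept genes and 6.6% of all promoters. In ANKRD1 it begins at position -195 and overlaps neither TEAD match. The counts are too small to rank the motifs, and the window says nothing of enhancers, through which YAP and TAZ are known to act.

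The list of 22 genes of a widely used YAP/TAZ target signature had the median farthest from 0. It kept 12 members with a median difference of 0.25, against 0 over all kept genes, and 8 were higher in siYAP, 2 lower and 2 identical. The list was written with earlier results of these arrays known. Of the 43 lists with a kept member it alone had a median of 0.1 or more in size, and the largest median of the others was 0.039 in size. That depended on counting genes with identical values. Without them 4 other lists also passed 0.1 in size. Their medians were -0.24 for N-glycan processing (3 genes lower, 0 higher) and -0.12 for immediate-early and AP-1 factors. They were 0.12 for MAP kinase feedback and -0.101 for the ciliary list, against 0.30 for the signature. In the signature only ANKRD1 passed 1.5-fold, where 0.566% of all kept genes were higher and 0.176% lower. DOCK5, an activator of the GTPase RAC1, had levels of 9.38 in siNC, 8.36 in siTAZ and 8.91 in siYAP. CCN2, a matricellular growth factor, had 7.90, 6.35 and 6.81 in the same order. AXL, a receptor tyrosine kinase, had 9.24, 7.78 and 8.06, and CRIM1, a transmembrane protein that binds BMPs, had 9.75, 9.001 and 9.31. For each of these 4 genes siYAP lay between siTAZ and the control, with differences of 0.55, 0.46, 0.28 and 0.31 between the knockdowns. AMOTL2, an angiomotin that binds YAP and TAZ, was placed the same way (6.21, 5.62 and 5.84), as was MYOF, a membrane repair protein of the ferlin family (10.27, 9.80 and 9.91). CCDC80, a secreted matrix protein, differed in kind: it was 6.91 in siNC, 6.68 in siTAZ and 7.20 in siYAP, on either side of the control. The transcription factor gene FOXF2 had the lowest difference (-0.31), with 6.33, 6.86 and 6.55, above the control in both knockdowns. IGFBP3 differed by -0.0080, and FJX1 and ARHGEF17 had identical values. CCN1 is without a named probe set and was not measured here. A further list of TEAD target genes kept 15 of 24 and had a median of 0, with 6 higher and 4 lower. In that list TNS3, which links integrins to actin, was 1.54-fold higher in siYAP (8.25 in siNC, 7.48 in siTAZ, 8.11 in siYAP), FSTL1, a secreted glycoprotein, was at 0.54, and the apoptosis inhibitor gene BIRC5 was lowest at -0.25.

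The genes above YAP and TAZ in the pathway were few beside the background shares, so their counts past 1.5-fold show nothing particular to them. Of 36 listed Hippo kinases and upstream regulators, 27 had a named probe set and 25 were kept. LATS1 and LATS2 are not among the 25, so nothing is reported of them. Of the 25, 0 passed 1.5-fold in either direction (backgrounds of 0.566% and 0.176%), 7 were higher in siYAP, 6 lower and 12 identical. NF2, the membrane-bound activator of the kinases, was lowest at -0.41, with 7.08 in siNC, 7.56 in siTAZ and 7.15 in siYAP, and AMOTL2 was highest at 0.22. All 8 TEAD and VGLL genes were kept and 0 passed 1.5-fold. Their differences ran from -0.15 (VGLL3, a TEAD cofactor, above the control in both knockdowns with 7.09, 7.62 and 7.47) to 0.029 (TEAD3).

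GALNT1, which attaches the first sugar of mucin-type O-glycans to proteins in the Golgi, had the second highest difference. It had 10.12 in siNC, 8.45 in siTAZ and 10.09 in siYAP. The siYAP level was -0.034 from the control and the siTAZ level stood alone, 3.11-fold below siYAP. Of its 16 kept family members, 8 had identical siYAP and siTAZ values, 3 were higher and 5 lower in siYAP. Only GALNT1 of the family passed 1.5-fold, where 0.566% of all kept genes were higher and 0.176% lower. GALNT12 was 6.61, 6.51 and 7.01 in siNC, siTAZ and siYAP, so siYAP was the high array, by 0.50. GALNT7, an enzyme that extends sites already glycosylated nearby, went the other way, with 8.65, 8.81 and 8.45. The wider O-glycosylation list kept 13 of 25 genes with a median of 0.

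Lists of membrane lipid enzymes had medians of 0 or -0.021 and 1 or 2 members each past 1.5-fold, where 0.566% of all kept genes were higher and 0.176% lower. HACD3, the dehydratase of very long-chain fatty acid elongation, had the third highest difference. Its levels of 11.68 in siNC, 10.51 in siTAZ and 11.69 in siYAP place the siTAZ array alone, 2.27-fold below siYAP. HACD4, the other kept dehydratase of that family, was identical in all 3 arrays. Of the 16 kept genes of the long-chain fatty acid list only HACD3 passed 1.5-fold, the median was 0, the elongase gene ELOVL4 was at 0.55 and the elongase gene ELOVL7 lowest at -0.47.

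MBOAT1, an acyltransferase that puts fatty acids onto lysophospholipids, was the second lowest gene. It had 7.15 in siNC, 8.47 in siTAZ and 7.25 in siYAP, so siTAZ was the array that stood apart, upwards, and siYAP was 2.34-fold below it. MBOAT7 was 7.03 in each knockdown against 6.74 in siNC. Among the 12 kept glycerophospholipid acyltransferases only MBOAT1 passed 1.5-fold. The surfactant-lipid enzyme gene LPCAT1 was highest, at 0.34.

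In the sphingolipid list, ACER2, a Golgi ceramidase that releases sphingosine from ceramide, was 5.86 in siNC, 6.55 in siTAZ and 5.40 in siYAP. The knockdown arrays thus lay on opposite sides of the control, 2.22-fold apart. SGPL1, the lyase that ends sphingosine 1-phosphate, went the other way, 1.58-fold higher in siYAP, with 7.94, 7.32 and 7.98. The remaining 18 of the 20 kept sphingolipid genes were under 1.5-fold, among them ACER3 at -0.031, and the list's median was 0.

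**Figure D3:**
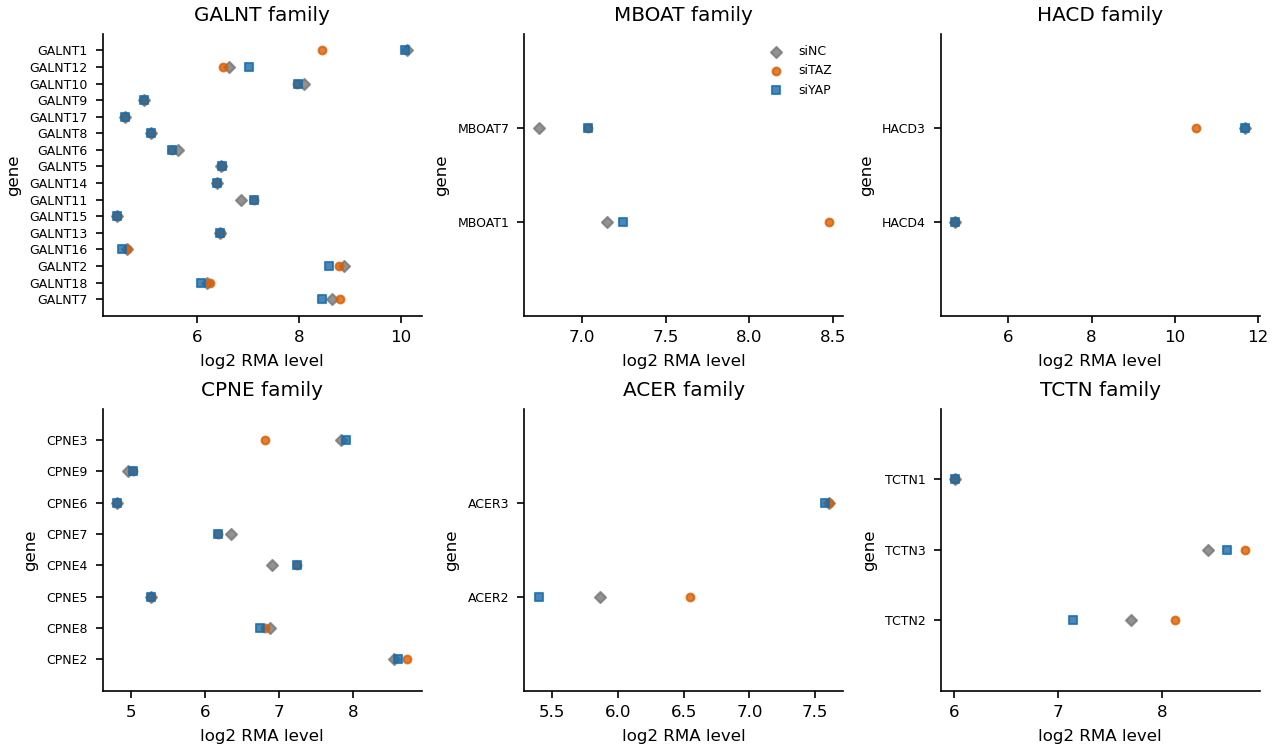
Levels of every kept member of 6 gene families in the siNC (grey), siTAZ (orange) and siYAP (blue) arrays (horizontal axis, log2 RMA level; symbols overlap where values are equal); families are GALNT (16 genes), MBOAT (2), HACD (2), CPNE (8), ACER (2) and TCTN (3). In each family exactly 1 member passed 1.5-fold: GALNT1, HACD3 and CPNE3 were higher in siYAP and MBOAT1, ACER2 and TCTN2 lower. These genes rank 2 to 4 from either end of the differences, and the families were chosen with earlier results known. That each family holds such a member is therefore no result. The siTAZ point is the distant one for GALNT1, MBOAT1, HACD3 and CPNE3.

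CPNE3, a calcium-dependent phospholipid-binding copine linked to cell migration, was 7.83 in siNC, 6.81 in siTAZ and 7.91 in siYAP, 2.13-fold apart. The other 7 kept copines were within 0.13 of equality. ANXA9, an annexin, joined it at 1.73-fold (6.94, 6.36 and 7.15), so 2 of the 26 kept genes of that list were higher in siYAP at 1.5-fold and 0 lower, against 0.566% and 0.176% of all kept genes. TCTN2, a tectonic protein of the ciliary transition zone, was at -0.99, with 7.70, 8.13 and 7.14, on opposite sides of the control. Its list kept 39 genes with a median of 0, of which 19 were lower in siYAP, 4 higher and 16 identical. Over all 10768 kept genes 2822 were lower, 2146 higher and 5800 identical, and the list's balance was not tested. Only TCTN2 passed 1.5-fold, TCTN3 was at -0.17 and the intraflagellar transport gene IFT46 highest at 0.47. CILK1, a kinase of ciliary transport that was on no list, was 1.84-fold higher in siYAP (7.54, 6.76 and 7.64). NUDT11, which hydrolyses inositol pyrophosphates, was at -0.85 with 4.83, 5.53 and 4.68. ITPK1, an inositol phosphate kinase, lay at the other end, 1.94-fold higher in siYAP with 7.36, 6.88 and 7.84.

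Of the 37 kept mitotic genes, 23 were lower in siYAP, 7 higher and 7 identical, with a median of -0.016. Over all 10768 kept genes lower was also the commoner direction (2822 lower, 2146 higher, median 0). The list had 2 members at least 1.5-fold higher and 0 lower, against 0.566% and 0.176% of all kept genes. KIF4A, a chromosome-bound kinesin, was 8.12 in siNC, 7.17 in siTAZ and 8.15 in siYAP, 1.97-fold higher in siYAP. FOXM1, the transcription factor of the G2 and mitotic programme, was 8.22, 7.57 and 8.29, 1.65-fold higher. For each, siTAZ was the low array and siYAP within 0.1 of the control. KIF4B, a near-identical intronless copy of KIF4A, was 1.55-fold higher, and its probes may share signal with KIF4A. KNL1, a kinetochore scaffold, was the lowest member at -0.41. DNA replication genes kept 25 members, 0 of them past 1.5-fold, with 12 lower, 5 higher and a median of 0. Their ends were the helicase subunit gene GINS1 (-0.29) and the transcription factor gene E2F1 (0.35), the latter 6.61 in siNC, 6.67 in siTAZ and 7.02 in siYAP, with siYAP the high array.

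Among secreted and signalling genes, CCL2, a chemokine that attracts monocytes, was the only member of the 18 kept inflammatory genes past 1.5-fold. It had 9.11 in siNC, 6.19 in siTAZ and 7.001 in siYAP, so both knockdowns were far below the control and siYAP was 1.75-fold above siTAZ. CXCL8 (interleukin-8) went the other way at -0.54, with 5.13, 4.56 and a dim 4.02. IL33, an alarmin, was also lower in siYAP, at -0.48. OSMR, the receptor of oncostatin M, was 9.58, 8.57 and 9.34, 1.71-fold higher in siYAP. PTGES, which makes prostaglandin E2, was 7.56 in siNC, 7.30 in siTAZ and 8.25 in siYAP, 1.94-fold apart, and here siYAP was the array away from the control. Of 24 kept receptor tyrosine kinases and EGFR ligands, 0 passed 1.5-fold, 11 were higher in siYAP, 4 lower and 9 identical. At 1.5-fold 0.566% of all kept genes were higher and 0.176% lower, so the counts of this and the inflammatory list show nothing particular to them. EGFR was highest at 0.39 (8.99, 8.46 and 8.85). EREG, an EGFR ligand, was lowest, with 8.55 in siNC and in siTAZ and 7.98 in siYAP, a difference of -0.57 with only siYAP away from the control. The phosphatase gene DUSP5, which acts on ERK, was 0.58 higher in siYAP with 6.36, 5.61 and 6.19, and DUSP6, of the same kind, was 0.27 lower with 7.30, 7.30 and 7.03. A dimmer DUSP5 probe set was at 0.20 (4.51, 4.09 and 4.29). TFPI2, a matrix-bound protease inhibitor, was 10.84, 9.62 and 10.25, 1.55-fold higher in siYAP and below the control in both knockdowns.

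SQSTM1 (p62), the autophagy receptor for ubiquitinated cargo, was 8.19 in siNC, 6.84 in siTAZ and 7.84 in siYAP. It was 1.996-fold higher in siYAP, just under 2-fold, while the other 30 kept autophagy genes were under 1.5-fold and 19 of the 31 were identical. EIF5A2, a hypusinated translation factor, was 7.33, 6.08 and 7.001, 1.89-fold higher, the only 1 of 21 kept translation factors past 1.5-fold. At that threshold 0.566% of all kept genes were higher and 0.176% lower, so the counts of these lists show nothing particular to them. ODC1, the first enzyme of polyamine synthesis, was at -0.42 with 10.40, 10.60 and 10.18. The p53 targets kept 12 members with a median of -0.039 and 0 past 1.5-fold. Their lowest members were the stress cytokine gene GDF15 (-0.54; 7.97, 8.75 and 8.21) and the cyclin gene CCNG1 (-0.47; 8.31, 8.88 and 8.41), for both of which siTAZ was the high array. TP53INP1 went the other way at 0.33 (5.65, 5.29 and 5.62).

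Other genes among the 20 highest had varied roles, and siTAZ was again the array away from the control for most. ACBD5, a peroxisomal membrane protein that tethers peroxisomes to the endoplasmic reticulum, was 8.96 in siNC, 7.90 in siTAZ and 8.82 in siYAP. NUS1, a subunit of the enzyme that makes dolichol for N-glycosylation, was 9.47, 8.51 and 9.40, and GPD2, the mitochondrial glycerol-3-phosphate dehydrogenase, 8.74, 7.61 and 8.49. CSRP1, a LIM-domain protein of the actin cytoskeleton, was 7.73, 6.88 and 7.84. AVL9, which takes part in late secretory transport, was 8.96, 7.74 and 8.59. These 5 genes were 1.802-fold to 1.94-fold higher in siYAP. The siYAP level was nearer to the control than the siTAZ level was for all 5. ZNF358, a zinc finger protein, was 7.14, 6.48 and 7.53, 2.08-fold apart, and LRRCC1, a centrosomal protein, 5.86, 5.41 and 6.22, both on opposite sides of the control. HNRNPA1P33 (8.15, 7.02 and 8.09) and RPL23AP87 (5.90, 4.90 and 5.95) are annotated pseudogenes, whose probes can take signal from parent genes. The other 3 RPL23AP87 probe sets had identical values in all arrays. Further genes past 1.5-fold, named here after their values were seen, were the chromatin genes CBX5 (heterochromatin protein 1 alpha, 0.73) and PBRM1 (a subunit of the PBAF remodeller, 0.71), the ubiquitin-activating enzyme gene UBA6 (0.76), the arginyltransferase gene ATE1 (0.73) and CDC23, of the anaphase-promoting complex (0.69). RGCC, a regulator of cell cycle progression, was an exception to the pattern: at 6.05, 6.17 and 6.83 it was above the control in siYAP, by 0.78.

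**Figure D4:**
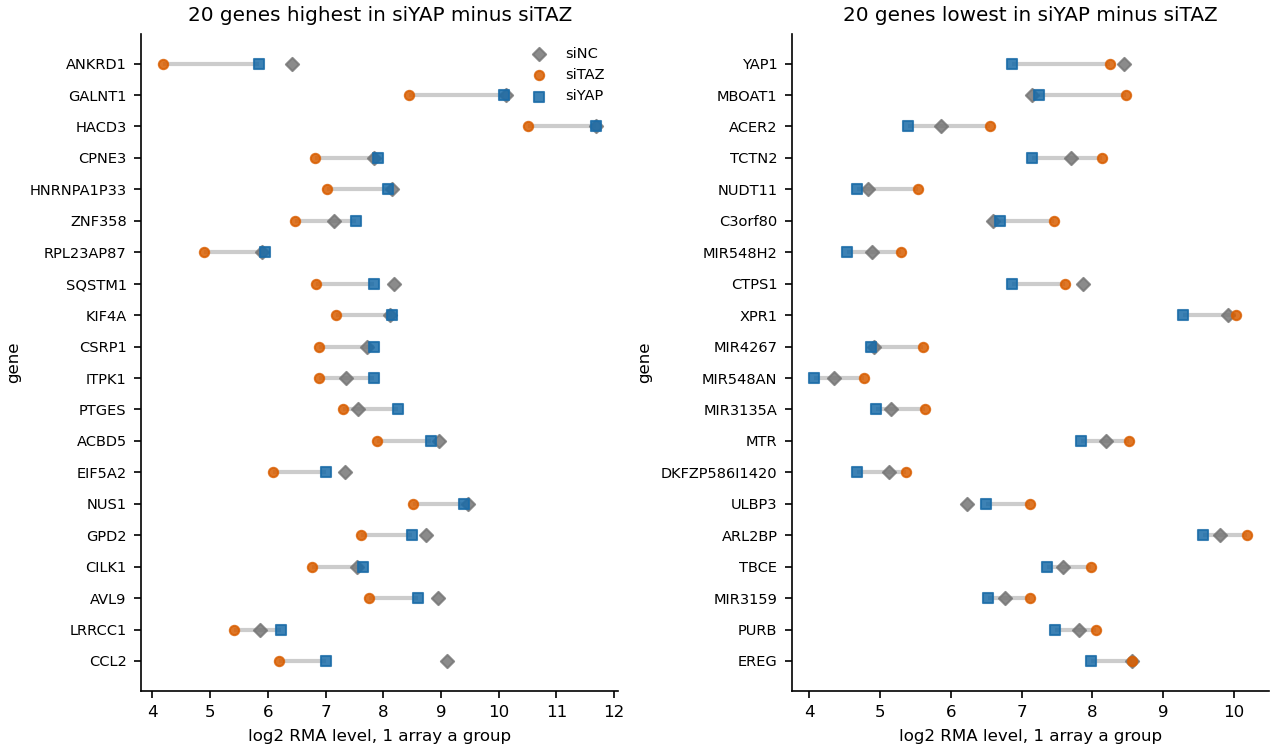
Levels of the 20 genes with the highest (left) and the 20 with the lowest (right) siYAP minus siTAZ differences in the siNC (grey diamonds), siTAZ (orange circles) and siYAP (blue squares) arrays (horizontal axis, log2 RMA level, 1 array a group); grey bars join the knockdowns. On the left the grey diamond is mostly nearer to the blue square than to the orange circle. PTGES (7.56 in siNC) and ITPK1 (7.36) are nearer to siTAZ, and for CCL2 (9.11) the diamond lies far above both knockdowns. On the right it often lies between the knockdowns, as for ACER2 (5.86) and TCTN2 (7.70).

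Of the 19 genes lower in siYAP, 3 were at least 1.5-fold below the control in the siYAP array (YAP1, CTPS1 and XPR1), and 4 lay within 0.2 of it. CTPS1, which makes CTP for nucleic acid and phospholipid synthesis, was 7.87 in siNC, 7.62 in siTAZ and 6.86 in siYAP, 1.68-fold lower in siYAP than in siTAZ. XPR1, the phosphate exporter, was 9.92, 10.03 and 9.28, 1.68-fold lower. MTR, methionine synthase, was 8.19, 8.52 and 7.83, 1.61-fold lower and on opposite sides of the control. DCP2, the catalytic mRNA-decapping enzyme, was under 1.5-fold at -0.54 and below the control in both knockdowns (8.14, 7.51 and 6.96). C3orf80 (6.60, 7.46 and 6.69) and ULBP3, a stress ligand of the NKG2D receptor (6.23, 7.11 and 6.49), were instead high in siTAZ. A dimmer C3orf80 probe set, under the filter level, was at -0.054 (3.41, 3.41 and 3.36), and with the mean of both C3orf80 was under 1.5-fold (-0.41). ARL2BP, a partner of the GTPase ARL2 (9.80, 10.18 and 9.56), and TBCE, a tubulin-folding cofactor (7.58, 7.98 and 7.36), were 1.54-fold and 1.53-fold lower in siYAP with the control between the knockdowns. A dimmer ARL2BP probe set was at -0.56.

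MicroRNA genes made up 5 of the 19 genes lower and 2 of the 61 higher in siYAP, of 366 kept, where 0.176% of all kept genes were lower and 0.566% higher. Their probes report RNA from the microRNA locus and not the processed microRNA. MIR548H2 was lowest (4.89 in siNC, 5.30 in siTAZ, 4.53 in siYAP), followed by MIR4267 (4.91, 5.61 and 4.88), MIR548AN (4.35, 4.78 and 4.06), MIR3135A (5.16, 5.64 and 4.94) and MIR3159 (6.77, 7.12 and 6.52). MIR4326 (4.99, 4.33 and 4.99) and MIR3691 (5.32, 4.99 and 5.58) were higher. A second MIR4267 probe set was at 0.071, so the 2 probe sets of that gene went in different directions. The mature sequences that RefSeq (GRCh38.p14) gave for 5 of the 7 genes are shown, with the seed (bases 2 to 8) in capitals, to let the seeds be compared. Their 6 seeds are all different.
hsa-miR-4267: uCCAGCUCgguggcac
hsa-miR-548an: aAAAGGCAuugugguuuuug
hsa-miR-3135a: uGCCUAGGcugagacugcagug
hsa-miR-3159: uAGGAUUAcaagugucggccac
hsa-miR-3691-3p: aCCAAGUCugcgucauccucuc
hsa-miR-3691-5p: aGUGGAUGauggagacucgguac
Their genome positions in that build are chr2:110070017-110070032 (minus strand) for hsa-miR-4267, chrX:106639828-106639847 (plus) for hsa-miR-548an, chr3:20137574-20137595 (plus) for hsa-miR-3135a and chr11:18387796-18387817 (plus) for hsa-miR-3159. The hsa-miR-3691 strands lie on the minus strand at chr6:5148246-5148267 (3p) and chr6:5148286-5148308 (5p). MIR548AN lies within RADX, MIR3135A within KAT2B, and MIR3691 within LYRM4 and within LYRM4-AS1, which was not kept. The kept host genes differed less: RADX had identical siYAP and siTAZ values, KAT2B differed by 0.017 and LYRM4 by -0.16.

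Most lists had a median of exactly 0. Of the 43 gene lists with a kept member, 28 held none past 1.5-fold, and 33 had that median. Because 5800 of the 10768 kept genes had identical values, a median of 0 does not show that a list was centred there. Over all lists 13 of 756 distinct kept genes were at least 1.5-fold higher in siYAP (1.72%) and 4 at least 1.5-fold lower (0.529%), against the 0.566% and 0.176% of all kept genes. The lists were written with earlier results of these arrays known, so they hold some of the genes already seen to differ, and nothing is read from the higher share. The 42 kept ribosome biogenesis genes ran from -0.16 (MRTO4) to 0.34 (NPM3), with 13 higher and 15 lower. The 17 aminoacyl-tRNA synthetases had 11 lower, 1 higher and a median of -0.018, with YARS1 lowest at -0.31 and GARS1 highest at 0.12. The 15 oxidative phosphorylation genes had 8 lower and 1 higher, all within 0.12 of equality. The 17 cholesterol synthesis genes had 10 lower and 3 higher, from INSIG1 (-0.33) to MSMO1 (0.34). The 22 immediate-early and AP-1 genes had 9 lower and 3 higher, with JUND lowest at -0.40. The 16 interferon genes ran from -0.065 (IFIH1) to 0.23 (IFIT3). Among junction genes and keratins, KRT7 was highest at 0.42, lower in siTAZ (6.10) than in siNC and siYAP (6.51 in each), and CLDN1 lowest at -0.19. In the actin list the actin-binding calponin gene CNN2 was lowest at -0.43 and EZR highest at 0.12. A dimmer CNN2 probe set had the same level, 6.04, in all 3 arrays. Wnt and Notch genes ran from MAML1 (-0.28) to NKD1 (0.31), and TGF-beta and BMP genes from SMAD5 (-0.053) to FSTL1 (0.54).

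**Figure D5:**
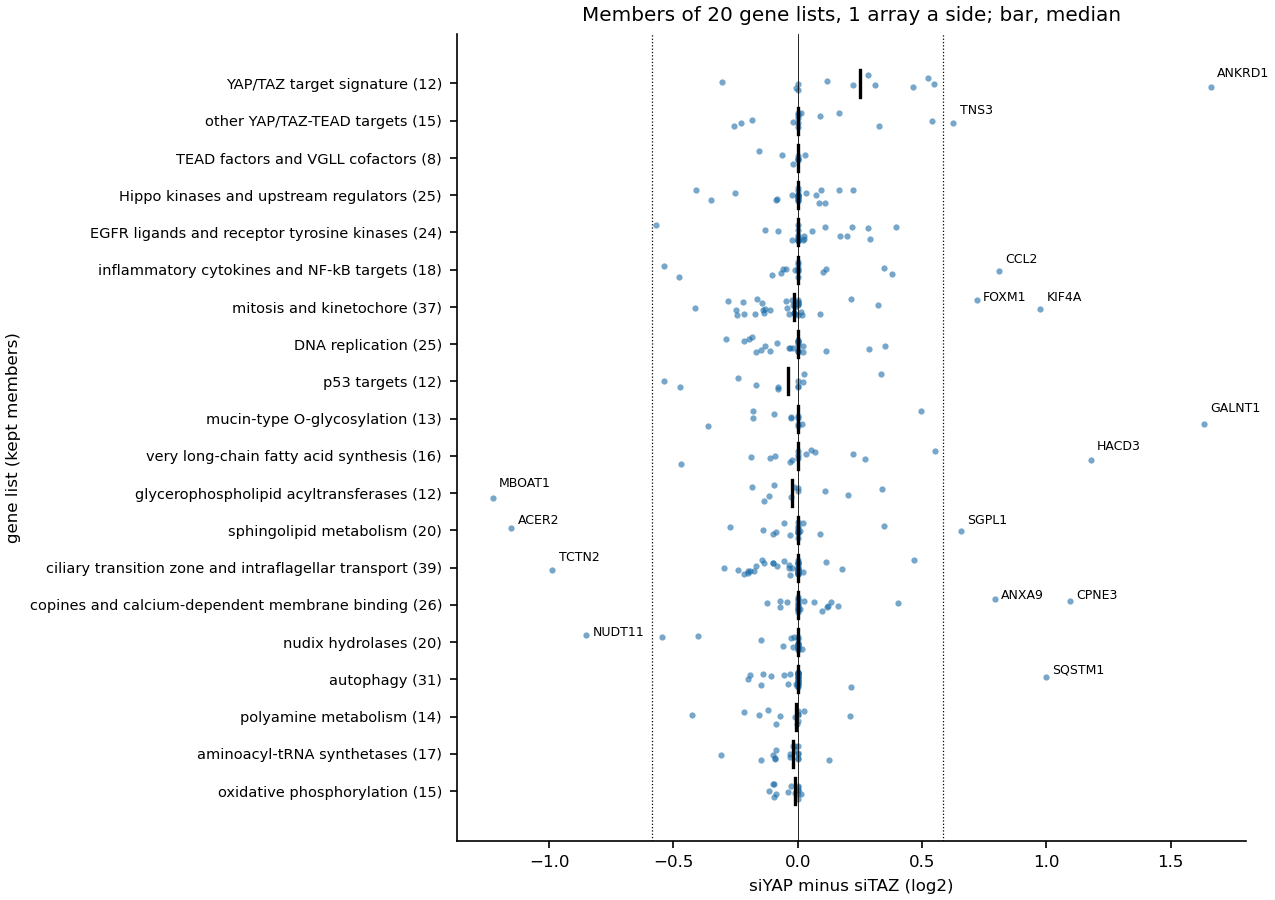
Differences of the kept members of 20 gene lists (points; horizontal axis, siYAP minus siTAZ, log2; vertical scatter within a list only separates points); black bars are list medians and dotted lines 1.5-fold, and the number of kept members is in parentheses. With identical values counted, the YAP/TAZ target signature has a median of 0.25. Every other list has a median within 0.039 of 0, with at most 2 members past the dotted lines.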

How the data were processed

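Gene expression was measured on Affymetrix whole-transcript arrays, 1 per group, with 500 ng of RNA as input, per the labels' protocols. The authors deposited log2 values normalized with RMA, per the submitters' processing notes. That the logarithm is to base 2 was read from the values (0.961 to 13.5). No RMA version or genome build is stated in the sources used here. RMA's quantile step makes every value relative to its array. All 16098 probe sets with 1 symbol in the platform annotation (of 53617) matched RefSeq by Entrez identifier. The brightest probe set by 3-array mean represented a gene. Differences, counts and medians were computed in Python 3.11.15 with pandas 2.3.3, and the code was tested on simulated data. No test was possible with 1 array a side.

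Named genes were the 20 highest and 20 lowest, each list's ends and members past 1.5-fold, the siRNA targets, 6 families and fixed targets. Genes named outside this rule were chosen after their values were seen. Members and lists were chosen with earlier results of these data known. Alternatives changed the filter, centring, scaling and probe set choice. The proteasome list had no named probe set. Promoters and microRNAs came from RefSeq GRCh38.p14. The array's own build is unknown, so no array coordinates are given.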

Additional observations from a re-analysis of the deposited data

Results flagged for a closer look

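For 7 genes the knockdowns lay on opposite sides of the control, each by at least 1.25-fold. With 1 array a group, whether the responses differ was not tested. The differences of siYAP minus siTAZ were -1.15 for ACER2, -0.99 for TCTN2, -0.77 for MIR548H2 and -0.68 for MTR, all higher than siNC in siTAZ and lower in siYAP. They were 0.81 for LRRCC1, 0.96 for ITPK1 and 1.05 for ZNF358, all lower than siNC in siTAZ and higher in siYAP.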

How the results depend on the processing

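With 1 array a side no replicate can be left out. No paired analysis was possible because each group has 1 array. Without the filter, the counts lower in siYAP were 5 at 2-fold and 32 at 1.5-fold, against 3 and 19. The other counts stayed within 1.5 times under all 8 alternatives: 5 to 8 higher at 2-fold and 53 to 71 at 1.5-fold, and, with a filter, 2 to 3 lower at 2-fold and 13 to 19 at 1.5-fold. ANKRD1 did not pass the filter at the 75th percentile or the filter on both arrays. With the mean of all probe sets, YAP1 (-0.87) and RPL23AP87 (0.26) were under 2-fold. MIR4267 changed sign (0.071) with the probe set brightest in siNC. The YAP/TAZ signature median ranged from 0.22 to 0.30, the latter without genes of identical values, an alternative chosen after seeing the data. Under that alternative the medians of 4 other lists moved by 0.1 or more.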

Other observations

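Probe sets without a gene name in the annotation were used in no comparison above. Of 37519, 15272 were at or above the filter level, and of these 71 were at least 2-fold higher in siYAP (0.465%) and 54 at least 2-fold lower (0.354%), with differences from -2.37 to 3.21. The shares among named genes were 0.065% and 0.0279%. What these probe sets report was not examined.

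Genes at least 1.5-fold higher in siYAP were mostly bright, and those at least 1.5-fold lower less so. The brightest 2692 kept genes (levels of 7.47 to 12.5) held 36 of the 61 genes higher in siYAP and 8 of the 19 lower, and the dimmest 2694 held 3 and 5. Identical values made up 28.8% of the former and 72.8% of the latter. For genes past 1.5-fold with further probe sets, 3 of the 8 further probe sets differed in the same direction as the brightest. Only that of MIR4267 went the other way (0.071). Those of LOC285889 and RPL23AP87 had identical siYAP and siTAZ values. Over 433 genes with a second probe set at or above the filter, which are not independent replicates and share the same RNA, the differences of the probe sets had a Pearson r of 0.34.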
